A study of Mus musculus with 2 samples.

Results

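The genes described here are the subunits of the oxidative phosphorylation system, chosen by symbol: 13 genes of the mitochondrial genome (mt-Nd, mt-Co, mt-Atp and mt-Cytb) and 85 nuclear genes (Nduf, Sdh, Uqcr, Cox4 to Cox8 and Atp5). These 98 were found among the 32286 features of the count table. The nuclear genes comprised 38 of complex I, 4 of complex II, 8 of complex III, 18 of complex IV and 17 of complex V. The mitochondrial genes comprised 7, 0, 1, 3 and 2 of the same complexes. Cyc1, Cycs and Ndufab1, whose symbols the rule does not match, are given separately.

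The series held 2 droplet-based 3′ single-cell RNA libraries of satellite cells, the stem cells of skeletal muscle. They were sorted 5 days after injury from biceps and recto femoris muscles of mice that carry 1 Pax3GFP allele, in which GFP reports Pax3. The samples carry wild-type as their genotype entry. One library held the GFP+ (PAX3+) fraction and the other the GFP- (PAX3-) fraction, each from 20000 loaded cells, so both groups were heterozygous for Pax3GFP and both were injured. Mouse age, mouse number and the kind of injury are not stated in the sources used here. With 1 library per fraction there were no replicates and no test. Every interval below is a 95% interval (exact conditional for ratios, exact binomial for shares) that covers counting error only, and a difference between fractions is a difference between these libraries.

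The electron transport chain passes electrons from NADH (complex I) and succinate (complex II) through complex III to oxygen at complex IV, and complex V uses the resulting proton gradient to make ATP. Complexes I, III, IV and V combine subunits translated inside the mitochondrion from its own genome with subunits encoded in the nucleus, while complex II is wholly nuclear. Satellite cells leave quiescence after injury, divide, and then fuse into fibres, a tissue rich in mitochondria that carries its own isoforms of several complex IV subunits.

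After filtering, 604 GFP+ cells (11981352 UMIs) and 2683 GFP- cells (44264206 UMIs) were kept; a UMI marks 1 captured transcript. Cells were put into non-overlapping states by marker genes. Acta1, the skeletal actin of differentiated muscle, marked 25 GFP+ and 140 GFP- cells with at least 10 Acta1 UMIs and 1000 CPM (UMIs of a gene per 1e6 UMIs in all), called Acta1-high. Of the rest, a UMI of Myog, a differentiation factor, marked 108 and 601 cells, then Mki67, a proliferation marker, 60 and 381, then Pax7, the satellite cell factor, 328 and 1215. The remaining 83 and 346 cells held none of these. In the GFP+ library those remaining cells held macrophage markers at 35876 CPM (59 of 83 cells with at least 10 such UMIs) against 130 CPM in its Pax7+ cells, and in the GFP- library they held 4230 CPM of macrophage and 3256 CPM of mural (vessel wall) markers. These remaining cells enter the library totals but none of the state comparisons. Cells with such markers were also present in the compared states: macrophage markers summed to 5930 CPM in GFP+ Mki67+ cells (12 of 60 cells with at least 10 such UMIs, and 7 with at least 10 mural UMIs) and to 1149 CPM in GFP+ Myog+ cells (4 of 108 cells). In Acta1-high cells they summed to 26.3 CPM (GFP+) and 99.1 CPM (GFP-). Kept cells of the 2 libraries shared 2 barcodes.

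Across the states, the nuclear genes took a larger share of transcripts in the differentiating states, while the share of the mitochondrial genes lay between 0.76 and 1.04 times that of Pax7+ cells. In the GFP+ library the 85 nuclear genes held 2.88% of all UMIs in Pax7+ cells, 3.36% in Mki67+ cells, 3.92% in Myog+ cells and 4.90% in Acta1-high cells. In the GFP- library the same shares were 2.78%, 3.41%, 3.46% and 4.08%. The 13 mitochondrial genes held 2.78%, 2.12%, 2.57% and 2.50% of UMIs in the GFP+ library and 4.69%, 3.94%, 4.34% and 4.87% in the GFP- library, in the same order of states. Both sets of nuclear shares were lowest in Pax7+ and highest in Acta1-high cells; the mitochondrial share was lowest in Mki67+ cells in both libraries.

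**Figure D1:**
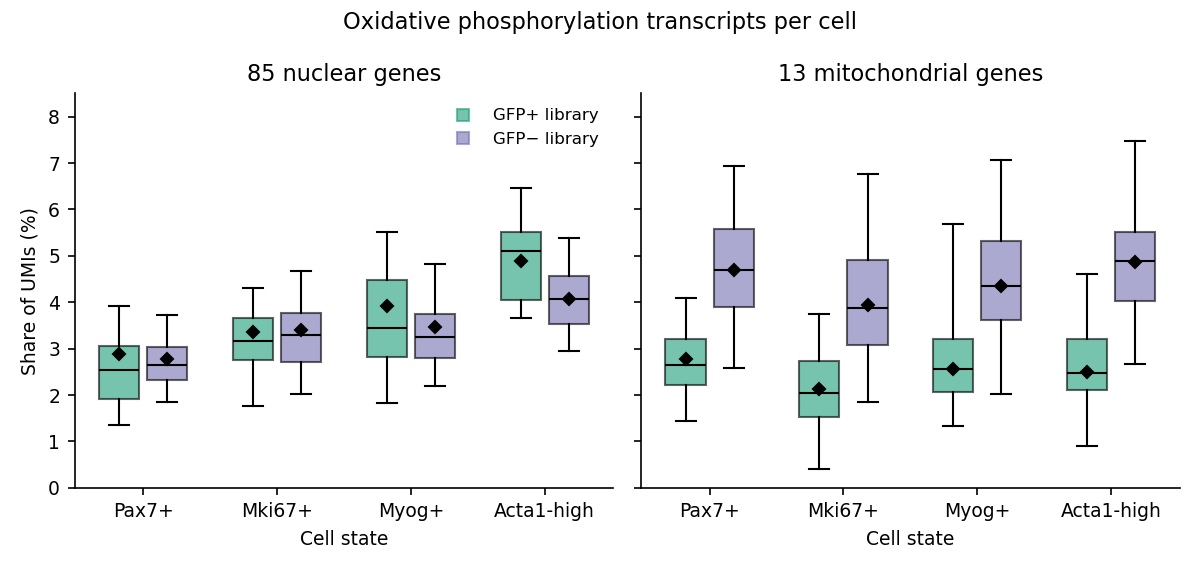
Share of each cell's UMIs (y axis, %) held by the nuclear (left) and mitochondrial (right) genes in 4 cell states (x axis) of the GFP+ and GFP- libraries. Boxes span the quartiles over cells with the median as a line, whiskers run from the 5th to the 95th percentile, and black diamonds are the shares over summed UMIs; the nuclear medians go from 2.53% to 5.11% (GFP+) and from 2.65% to 4.06% (GFP-) between Pax7+ and Acta1-high cells, while the mitochondrial medians lie at 2.66% and 2.47% (GFP+) and at 4.69% and 4.89% (GFP-).

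As ratios to Pax7+ cells of the same library, the nuclear sum was 1.70 (GFP+) and 1.47 (GFP-) in Acta1-high cells, 1.36 and 1.24 in Myog+ cells, and 1.17 and 1.22 in Mki67+ cells. The mitochondrial sum was 0.90 and 1.04 in Acta1-high cells, 0.93 in Myog+ cells of both libraries, and 0.76 and 0.84 in Mki67+ cells. The Myog+ value of the GFP+ library was 1.04 as a mean of the cells' own shares, so its direction depended on the weighting. Without cells that held 10 or more UMIs of other-type markers, the GFP+ Mki67+ ratios were 1.24 (nuclear) and 0.83 (mitochondrial), and the GFP+ Myog+ ratios 1.39 and 0.97. All 25 GFP+ Acta1-high cells and 138 of the 140 GFP- ones had a nuclear share above the median of their library's Pax7+ cells. For the mitochondrial share this held for 9 of 25 and 78 of 140 cells. Across all kept cells Spearman's rho of both shares was 0.08 over 604 GFP+ cells and −0.17 over 2683 GFP- cells, where both shares of a cell are fractions of the same UMI total.

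Depth moved with the nuclear share. The median UMI count was 16128 in Pax7+ and 32406 in Acta1-high cells of the GFP+ library, and 13504 and 21279 in the GFP- library. The nuclear share correlated with a cell's UMI count, with rho of 0.71 over GFP+ and 0.40 over GFP- cells. Within states (GFP+, then GFP-) rho was 0.76 and 0.30 in Pax7+, 0.57 and 0.29 in Mki67+, and 0.52 and 0.30 in Myog+ cells. In Acta1-high cells it was −0.095 (25 cells) and −0.001 (140 cells). Among cells of 10000 to 40000 UMIs, a limit set after the data were seen, the Acta1-high ratio was 1.67 in the GFP+ and 1.45 in the GFP- library, and the Mki67+ ratio was 1.08 and 1.19. Shares and CPM are relative to a cell's total UMIs, and the part of depth in these differences was not tested.

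The higher nuclear share in Acta1-high cells covered all 5 complexes. The summed nuclear subunits stood at 1.66 and 1.46 times the Pax7+ level for complex I (GFP+ and GFP- library), 1.86 and 1.63 for complex II, 1.76 and 1.51 for complex III, 1.68 and 1.39 for complex IV, and 1.73 and 1.52 for complex V. The mitochondrial subunits stood at 1.05 and 1.19 for complex I, 1.14 and 1.26 for complex III, 0.80 and 0.95 for complex IV, and 0.90 and 1.06 for complex V. A gene counted as higher or lower with at least 20 CPM in either state and a ratio of at least 1.5 in that direction. In the GFP+ library 63 of the 80 nuclear genes that reached 20 CPM were higher and 0 lower, where 23.0% of all features were higher and 29.0% lower. In the GFP- library 41 of 78 were higher and 0 lower, against 19.8% and 25.0% of all features. With gates that let a cell count in several states, 17 were higher. The share of all features under those gates is not given here, so this count has no background beside it. In the main gates the median log2 ratio of the 80 and 78 nuclear genes was 0.78 and 0.63, against −0.05 and −0.06 over all features. None of the 13 mitochondrial genes was past 1.5-fold in either direction.

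**Figure D2:**
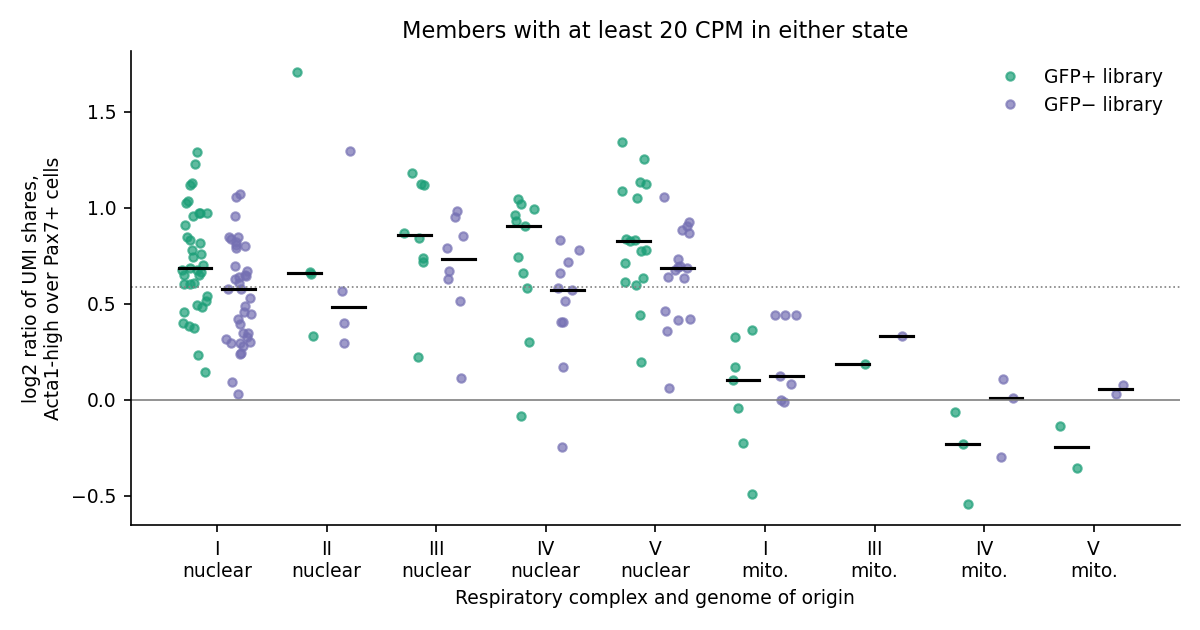
Log2 ratio of a gene's share of UMIs in Acta1-high over Pax7+ cells (y axis) for each gene with at least 20 CPM in either state, by complex and genome (x axis), in both libraries; black bars are medians and the dotted line marks 1.5-fold. Nuclear medians lie between 0.48 and 0.91 and mitochondrial ones between −0.25 and 0.33; Cox6a2 in both libraries and Cox7a1 and Cox8b in the GFP+ library lie above the axis range and are left out of the points and bars.

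In complex I, Ndufa5 was at 181.6 CPM in Pax7+ and 424.8 in Acta1-high cells of the GFP+ library, and at 124.6 and 261.6 in the GFP- library, log2 ratios of 1.23 and 1.07. Ndufa12 had log2 ratios of 1.12 and 1.06, and Ndufs1, an iron-sulfur subunit of the electron path, of 1.04 and 0.96. Ndufa6 was nearest to its Pax7+ level in the GFP- library; it was at 251.3 and 277.6 CPM in the GFP+ library and at 245.1 and 250.5 CPM in the GFP- library. Ndufb11 was likewise at log2 ratios of 0.23 and 0.09, so the subunits of this complex differed in size of change.

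Complex II, succinate dehydrogenase, also works in the citric acid cycle. Its membrane anchor Sdhd was at 83.3 CPM in Pax7+, 108.3 in Mki67+, 176.7 in Myog+ and 271.6 in Acta1-high cells of the GFP+ library. In the GFP- library Sdhd was at 122.6, 191.7, 197.6 and 300.7 CPM in these states. Acta1-high over Pax7+, this was a ratio of 3.26 (2.77 to 3.83) and 2.45 (2.27 to 2.65), the largest of complex II in both libraries. Its other subunits spread less. Sdhb, the iron-sulfur subunit, had log2 ratios of 0.66 and 0.57, the anchor Sdhc of 0.66 and 0.40, and the flavoprotein Sdha of 0.33 and 0.30.

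In complex III, the small subunit Uqcr11 was at 512.0 and 1163.1 CPM (GFP+, Pax7+ then Acta1-high) and at 356.3 and 703.2 CPM (GFP-). Uqcr10 had log2 ratios of 1.12 and 0.95 and Uqcrq of 1.12 and 0.85. The core protein Uqcrc2 was at 0.84 and 0.51. The hinge protein Uqcrh was at 0.22 and 0.11, with 1.5-fold not reached in any state of either library.

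In complex V, Atp5md, a small membrane subunit, was at 437.4 and 1108.0 CPM in Pax7+ and Acta1-high cells of the GFP+ library and at 276.3 and 575.4 CPM in the GFP- library. Atp5e, a subunit of the central stalk, was at log2 ratios of 0.44 and 0.36. The membrane ring of the enzyme is built of subunit c, one and the same mature protein made from Atp5g1, Atp5g2 and Atp5g3. Atp5g2 was at 1047.9 and 1199.0 CPM (GFP+) and at 1074.6 and 1121.6 CPM (GFP-), while Atp5g1 had log2 ratios of 1.05 and 0.91 and Atp5g3 of 1.14 and 0.92. The Atp5g2 share of the UMIs of these genes therefore went from 56.4% (95% interval 55.5 to 57.4) in Pax7+ to 41.0% (39.0 to 42.9) in Acta1-high cells of the GFP+ library. In the GFP- library it went from 57.4% (56.8 to 57.9) to 42.7% (41.7 to 43.7). Mki67+ cells were between these values in both libraries, at 50% and 46.7%, as were Myog+ cells, at 42.4% and 48.8%.

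Complex IV carries the muscle isoforms. Cox6a2, Cox7a1 and Cox8b are the heart and skeletal muscle forms of subunits whose widespread forms are Cox6a1, Cox7a2 and Cox8a. Upstream sequences are shown because these isoforms had the largest Acta1-high over Pax7+ ratios of all members. The windows are the 250 bases before the RefSeq (GRCm38.p6) start, for the muscle forms and their widespread partners. Each is written 5′ to 3′ on the gene's own strand, with capitals marking matches of the motifs spelled out further on. The Cox6a1 and Cox7a1 windows run past the GENCODE starts of these genes, whose positions are given below. Of the 85 nuclear genes 69 matched the promoter table; Cox6a2 is not among them.
Cox6a1 (chr5:115348959-115349208, minus strand): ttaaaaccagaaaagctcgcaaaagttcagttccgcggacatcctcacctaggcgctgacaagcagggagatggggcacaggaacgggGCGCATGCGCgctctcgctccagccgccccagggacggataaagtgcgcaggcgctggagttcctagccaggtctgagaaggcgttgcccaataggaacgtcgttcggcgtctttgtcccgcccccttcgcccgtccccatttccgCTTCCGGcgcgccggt
Cox7a2 (chr9:79759854-79760103, minus strand): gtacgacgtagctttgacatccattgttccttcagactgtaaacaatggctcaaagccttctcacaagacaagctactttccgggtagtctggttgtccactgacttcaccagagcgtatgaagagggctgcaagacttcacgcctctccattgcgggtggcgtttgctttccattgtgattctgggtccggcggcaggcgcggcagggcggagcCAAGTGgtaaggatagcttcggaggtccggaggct
Cox7a1 (chr7:30183921-30184170, plus strand): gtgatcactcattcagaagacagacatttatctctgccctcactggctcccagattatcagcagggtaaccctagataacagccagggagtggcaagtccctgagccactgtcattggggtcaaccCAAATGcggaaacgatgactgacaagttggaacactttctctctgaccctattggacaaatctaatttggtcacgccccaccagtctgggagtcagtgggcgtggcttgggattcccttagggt
Cox8a (chr19:7217617-7217866, minus strand): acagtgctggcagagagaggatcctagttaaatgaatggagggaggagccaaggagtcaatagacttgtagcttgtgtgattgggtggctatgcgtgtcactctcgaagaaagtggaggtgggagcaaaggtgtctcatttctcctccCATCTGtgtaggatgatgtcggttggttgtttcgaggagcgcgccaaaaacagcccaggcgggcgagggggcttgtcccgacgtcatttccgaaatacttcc
Cox8b (chr7:140900447-140900696, minus strand): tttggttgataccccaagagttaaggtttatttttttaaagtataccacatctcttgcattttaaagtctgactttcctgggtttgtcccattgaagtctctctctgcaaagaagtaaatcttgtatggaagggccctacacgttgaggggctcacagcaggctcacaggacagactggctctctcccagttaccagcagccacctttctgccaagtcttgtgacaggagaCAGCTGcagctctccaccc
Cox7a1, Cox7a2, Cox8a and Cox8b each held 1 E-box in this window (CANNTG, the core bound by MyoD-type factors and others), and Cox6a1 held none. Cox6a1 instead held the NRF1 consensus and an ETS match (CCGGAAG, here as its reverse complement). That ETS match lies at the end of the window, within the GENCODE gene. The count of CG dinucleotides was 26 in Cox6a1, 14 in Cox7a2 and 11 in Cox8a, and 4 in Cox7a1 and 1 in Cox8b. An E-box was present in 60.8% of the 74 windows of the 69 matched genes and in 66.2% of all 32851 windows. The MEF2 consensus was in 0 of 74 windows (0.508% of all), ETS in 16.2% (6.91% of all), NRF1 in 5.41% (0.782% of all; Cox6a1, Atp5g2, Atp5k and Ndufa11), TCAAGGTCA of the ERR factors in 1.35% (0.387%) and AAGATGGC of YY1 in 1.35% (1.56%). Both strands were searched, matches of different motifs may overlap, and a match is only a run of letters. The 74 windows had medians of 14 CG dinucleotides and 56.2% GC, against 6 and 52.4% over all windows. The ETS and NRF1 letters contain CG, and the part of base composition in their shares was not tested.

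Cox6a2 (chromosome 7, 128205435 to 128206387, minus strand, mm10) went from 3 UMIs (0.54 CPM) in Pax7+ to 41 UMIs (49.1 CPM) in Acta1-high cells of the GFP+ library. In the GFP- library it went from 8 UMIs (0.46 CPM) to 166 UMIs (49.6 CPM). Its partner Cox6a1 (chromosome 5, 115345642 to 115348981) was at 230.4 and 363.8 CPM and at 228.5 and 326.7 CPM. Cox6a2 thus made up 0.23% (0.048 to 0.68) of the pair in GFP+ Pax7+ cells and 11.9% (8.66 to 15.8) in GFP+ Acta1-high cells, and 0.20% (0.087 to 0.40) and 13.2% (11.4 to 15.2) in the GFP- library. In Myog+ cells it was 0.52% and 0.89%, so its level stood apart in Acta1-high cells in both libraries. Barcodes of 1 to 100 UMIs, which mostly hold free RNA, had a Cox6a2 share of 8.59% (GFP+) and 4.68% (GFP-), above that of Pax7+ and Myog+ cells and below that of Acta1-high cells.

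Cox7a1 (chromosome 7, 30184144 to 30186078) went from 4.67 to 44.3 CPM (37 UMIs in Acta1-high cells) in the GFP+ library and from 3.68 to 18.5 CPM (62 UMIs) in the GFP- library. Cox7a1 made up 0.87% (0.57 to 1.27) and 4.0% (2.83 to 5.48) of its pair in GFP+ cells and 0.79% (0.61 to 1.0) and 2.28% (1.75 to 2.91) in GFP- cells. In barcodes of 1 to 100 UMIs its share was 2.23% (GFP+) and 1.54% (GFP-). Cox8b (chromosome 7, 140898945 to 140900446) went from 4 to 19 UMIs (0.72 to 22.7 CPM) and from 9 to 49 UMIs (0.52 to 14.6 CPM). Its share of the pair was 0.90% (0.54 to 1.40) and 0.79% (0.59 to 1.04) in Acta1-high cells and 0.04% in Pax7+ cells of both libraries. In barcodes of 1 to 100 UMIs it was 0.16% (4 UMIs) and 0.11% (6 UMIs), above the Pax7+ share and below that of Acta1-high cells. Among the 4 states all 3 muscle isoforms were thus highest in Acta1-high cells of both libraries. In the cells with none of the 4 markers, Cox7a1 had 10 UMIs (9.66 CPM, GFP+) and 38 UMIs (11.7 CPM, GFP-). Cox7a2 had 448 and 1572 UMIs in those cells. The Cox7a1 share of its pair in these GFP- cells was therefore near that of GFP- Acta1-high cells. The widespread forms were also higher in Acta1-high than in Pax7+ cells: Cox6a1 had log2 ratios of 0.66 and 0.52, Cox7a2 had log2 ratios of 1.0 and 0.78 and Cox8a of 0.58 and 0.40. Since 3′ counting can weight the isoforms of a pair unequally, these shares are read as differences between states only.

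**Figure D3:**
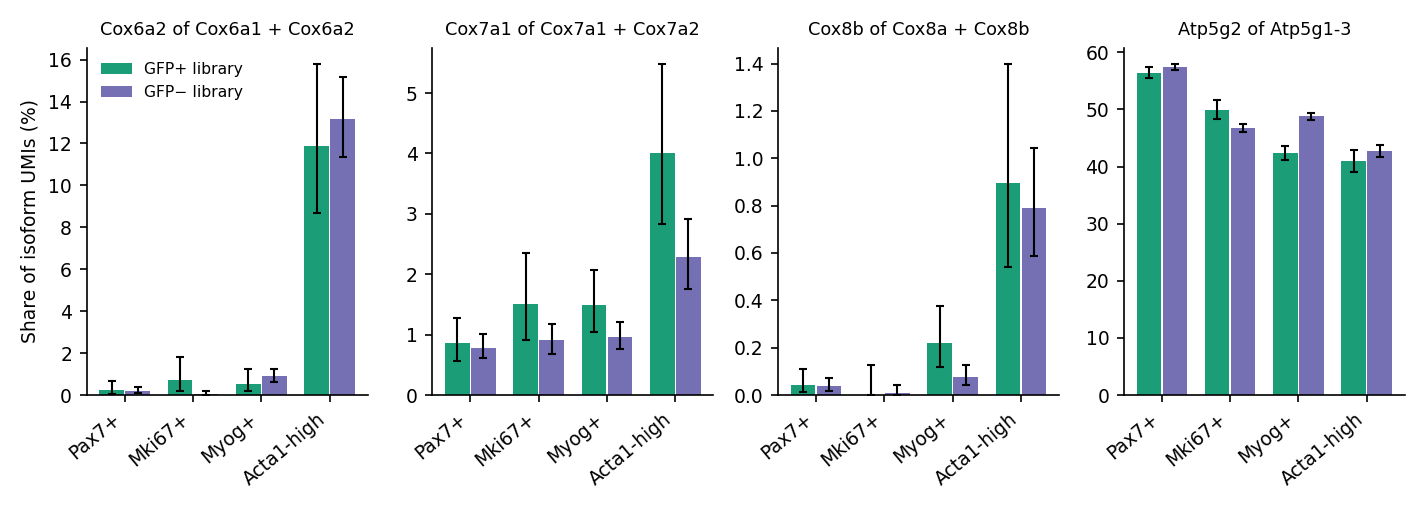
Share of the UMIs of an isoform group (y axis, %) that belongs to Cox6a2, Cox7a1, Cox8b or Atp5g2, in 4 cell states (x axis) of both libraries; error bars are exact 95% intervals for counting error and the panels differ in scale. Of these 4 states the 3 muscle isoforms are highest in Acta1-high cells, at 11.9% and 13.2%, 4.0% and 2.28%, and 0.90% and 0.79%, while Atp5g2 goes from 56.4% and 57.4% in Pax7+ cells to 41.0% and 42.7%.

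Among the other subunits of complex IV, Cox5a had log2 ratios of 1.05 and 0.83, Cox7b of 0.93 and 0.66, and Cox6b1 of 0.96 and 0.57. Cox4i1, the largest nuclear subunit, was at 0.30 and 0.17. Cox7a2l, which joins complex IV into supercomplexes, was the exception: of the nuclear genes that reached 20 CPM it alone had an Acta1-high over Pax7+ ratio below 1, in both libraries. In the GFP+ library the counting interval of this ratio included 1 (0.94, 0.84 to 1.06). Cox7a2l was at 413.3 CPM in Pax7+, 288.6 in Mki67+, 330.7 in Myog+ and 390.1 in Acta1-high cells of the GFP+ library, and at 536.4, 349.7, 444.1 and 452.1 CPM in the GFP- library. Its level was below that of Pax7+ cells in the 3 other states of both libraries, and at 0.65-fold (0.63 to 0.68) in GFP- Mki67+ cells it passed the 1.5-fold limit downwards. Cox6b2, the testis form beside Cox6b1, was at 10.2 CPM or less over each library and at 0.59% and 0.62% of its pair in Acta1-high cells. Cox7b2 had 1 and 4 UMIs, and Cox8c was at 0 UMIs in both libraries, which allows up to 0.25 CPM (3 UMIs) in the GFP+ and 0.068 CPM in the GFP- library.

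In the earlier states fewer genes were past 1.5-fold. In Myog+ cells 22 of 77 nuclear genes were higher and 0 lower in the GFP+ library, beside 15.6% and 14.7% of all features, and 6 of 77 were higher and 0 lower in the GFP- library, beside 7.88% and 7.45%. The GFP- share was thus near the background. The ratio was above 1 for 75 of 77 nuclear genes in each library, but the share of all features above 1 is not given here. Atp5g3, Ndufa5, Ndufa12, Uqcr10, Atp5k and Sdhd were past 1.5-fold in both libraries. In Mki67+ cells 1 of 77 nuclear genes, Ndufa3, was higher in the GFP+ library (15.3% of all features higher, 10.5% lower). In the GFP- library 10 of 78 were higher, Ndufa4l2 among them, and Cox7a2l was lower (13.4% and 7.34% of all features). These shares were at or below the background, so proliferating cells did not stand apart gene by gene. A ratio above 1 was found for 68 of 77 and 72 of 78 nuclear genes, again without a share of all features beside it.

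Within the mitochondrial genome the genes went different ways, also within complexes I and IV. mt-Co1, the catalytic subunit of complex IV, was at 6726.6 CPM in Pax7+, 4780.7 in Mki67+, 5472.8 in Myog+ and 4620.0 in Acta1-high cells of the GFP+ library, and at 9643.5, 6934.6, 7906.7 and 7851.2 CPM in the GFP- library. It was highest in Pax7+ cells in both. The other complex IV genes did not share this in the GFP- library. From Pax7+ to Acta1-high cells mt-Co2 went from 4033 to 3865 CPM (GFP+) and from 7686 to 8297 CPM (GFP-). mt-Co3 went from 3445 to 2933 CPM (GFP+) and from 7683 to 7736 CPM (GFP-). mt-Cytb, the complex III subunit, was at 2905.1 and 3302.6 CPM in Pax7+ and Acta1-high cells (GFP+) and at 4488.5 and 5653.7 CPM (GFP-), a log2 ratio of 0.19 and 0.33. The complex I genes mt-Nd1, mt-Nd2 and mt-Nd3 were at log2 ratios of 0.33, 0.17 and 0.36 (GFP+) and 0.44 in each case (GFP-). mt-Nd4 was at −0.05 and 0.08, mt-Nd5 at −0.23 and −0.01, and mt-Nd6, with 28 UMIs in GFP+ Acta1-high cells, at −0.49 and −0.004. As a share of mitochondrial UMIs, mt-Co1 was 24.2% in Pax7+ and 18.4% in Acta1-high cells of the GFP+ library and 20.6% and 16.1% in those of the GFP- library. None of these differences reached 1.5-fold.

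The 2 libraries themselves differed in the mitochondrial genes and little in the summed nuclear genes. The share of mitochondrial genes was 2.52% of UMIs in the GFP+ library against 4.42% in the GFP- library, a ratio of 0.568 (0.566 to 0.571). Within Pax7+, Mki67+, Myog+ and Acta1-high cells it was 0.59, 0.54, 0.59 and 0.51. In barcodes of 1 to 100 UMIs, which are not cells, the shares were 3.93% and 7.39%, a ratio of 0.53. The library difference was thus present in these barcodes as well as in cells. Nuclear genes held 3.29% and 3.18% of UMIs, a ratio of 1.03 (1.03 to 1.04), which was 1.04, 0.99, 1.13 and 1.2 in the same states and 0.95 as the mean of the cells' own shares. The direction of the nuclear difference thus depended on the weighting of the cells. By complex, the nuclear sums were at 1.02 (I), 0.80 (II), 1.07 (III), 1.05 (IV) and 1.03 (V), and the mitochondrial sums at 0.76 (I), 0.60 (III), 0.55 (IV) and 0.48 (V). Barcodes left out for more than 10% mitochondrial UMIs numbered 32 (5.03%) and 343 (11.3%).

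The mitochondrial difference was not uniform. Between the libraries 2 of the 13 genes were higher in the GFP+ library and 6 lower, beside 6.94% and 2.63% of all 6007 features tested. mt-Atp6 was at 4618.1 CPM in GFP+ and 10435.8 in GFP- cells (0.44-fold), and mt-Co3 at 3112.4 and 7179.2 CPM (0.43-fold). mt-Nd2 (0.50-fold), mt-Co2 (0.51), mt-Nd1 (0.54) and mt-Cytb (0.60) were also past the limit. mt-Co1 (0.69), mt-Nd4 (0.75) and mt-Nd5 (0.88) were lower by less. mt-Atp8 went the other way, at 476.7 CPM in GFP+ and 181.6 in GFP- cells (2.63-fold, 2.54 to 2.72), as did mt-Nd4l at 766.9 and 441.2 CPM (1.74-fold, 1.70 to 1.78). mt-Nd6 and mt-Nd3 were 1.15-fold and 1.13-fold higher.

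mt-Atp8 and mt-Nd4l each share their end with the start of the next gene on the same strand of the mitochondrial genome, mt-Atp6 and mt-Nd4. Their annotated sequences (GENCODE M21, mm10) are shown because the partners of each pair moved in opposite directions, with the stretch that lies in both genes in capitals.
mt-Atp8 (chrM:7766-7969, plus strand): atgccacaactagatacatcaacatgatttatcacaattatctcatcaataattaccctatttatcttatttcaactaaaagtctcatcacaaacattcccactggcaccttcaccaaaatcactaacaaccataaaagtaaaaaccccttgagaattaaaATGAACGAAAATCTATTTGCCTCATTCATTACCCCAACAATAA
mt-Nd4l (chrM:9877-10173, plus strand): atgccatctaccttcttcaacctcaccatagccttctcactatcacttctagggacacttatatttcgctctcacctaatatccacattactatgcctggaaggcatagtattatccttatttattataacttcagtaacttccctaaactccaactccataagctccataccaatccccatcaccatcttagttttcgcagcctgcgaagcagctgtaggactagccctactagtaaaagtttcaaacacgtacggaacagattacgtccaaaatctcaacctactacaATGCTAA
Reads that lie in the shared stretch cannot be assigned to 1 gene, how the authors' counting treated them is not stated, and the values of these 4 genes are therefore uncertain. Of mitochondrial UMIs, mt-Atp8 made up 1.90% in the GFP+ library (1.73% to 2.0% in the 4 states) against 0.41% in the GFP- library (0.40% to 0.44%). In barcodes of 1 to 100 UMIs it was 1.14% and 0.26%. The ratio of mt-Atp8 between the libraries thus lay above 1, and that of mt-Atp6 below 1, in each state and in free RNA.

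**Figure D4:**
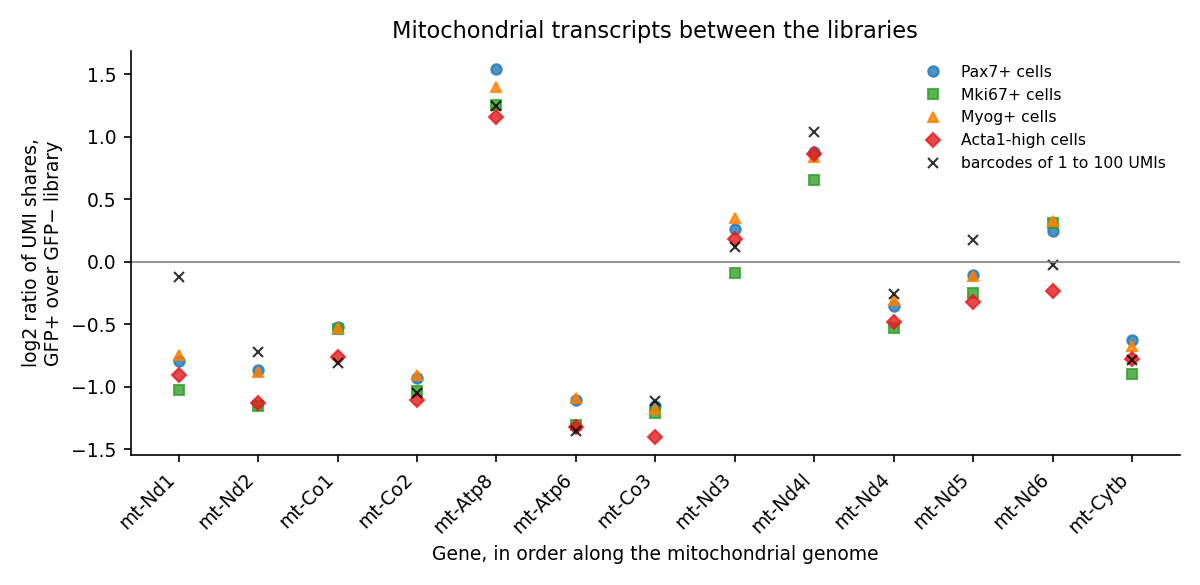
Log2 ratio of each mitochondrial gene's share of UMIs in the GFP+ over the GFP- library (y axis), with the genes in their order along the mitochondrial genome (x axis), in 4 cell states and in barcodes of 1 to 100 UMIs. mt-Atp8 and mt-Nd4l lie above 0 in all 5 sets, mt-Nd1, mt-Nd2, mt-Co1, mt-Co2, mt-Atp6, mt-Co3, mt-Nd4 and mt-Cytb lie below 0 in all 5, and mt-Nd3, mt-Nd5 and mt-Nd6 vary in sign.

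Annotated length moved with this library difference. The 4 mitochondrial genes with a ratio above 1 had the 4 shortest annotations: mt-Atp8 (204 bases), mt-Nd4l (297), mt-Nd3 (348) and mt-Nd6 (519). These are annotated gene lengths. Since mt-Atp8 and mt-Nd4l overlap mt-Atp6 and mt-Nd4, their annotated lengths need not be those of separate RNA molecules. Among the nuclear genes 7 of 78 were higher in the GFP+ library and 2 lower, near the 6.94% and 2.63% of all features. They were Ndufa3 at 197.8 and 106.9 CPM (log2 0.89), Ndufb1-ps (0.75), Atp5k (0.74), Atp5md (0.71), Ndufa1 (0.62), Atp5mpl and Atp5e (0.59 each), against Ndufa4l2 (−4.05) and Sdhc (−0.63). The 7 nuclear genes below 20 CPM in both libraries were Cox4i2, Cox6a2, Cox6b2, Cox7a1, Cox7b2, Cox8b and Cox8c. Ndufa1, Atp5mpl, Atp5e and Sdhc are outside the fixed naming rule for this comparison and were named after their values were seen. The 5 nuclear genes tested with a principal transcript under 500 bases (Atp5k, Ndufa1, Atp5e, Uqcr10 and Uqcr11) all had a ratio above 1, with a median log2 ratio of 0.59, while the 18 of 1500 bases or more had a median of −0.21, with 5 above 1. Among all features, 48 of the 53 under 500 bases and 1616 of the 4750 of 1500 bases or more were above 1. The counts of nuclear genes above 1 were thus near these shares. Over all features the medians were 0.43 for the 53 under 500 bases, −0.05 for the 250 of 500 to under 800, −0.13 for the 953 of 800 to under 1500 and −0.11 for the 4750 of 1500 bases or more, so only the shortest band stood apart there. Across the 78 nuclear genes Spearman's rho of ratio and length was −0.48 in cells, and −0.45 over 79 genes in barcodes of 1 to 100 UMIs; with the longest in place of the principal transcript it was −0.33 in cells. It was −0.38 over the 13 mitochondrial genes, and over all features −0.12 in cells and −0.37 in barcodes of 1 to 100 UMIs. Within states, rho over all features was −0.03 in Pax7+, −0.12 in Mki67+, −0.26 in Myog+ and −0.22 in Acta1-high cells. The length comparison was added after the data were seen, genes are not independent replicates, and the part of length in the library difference was not tested. For the Acta1-high over Pax7+ ratios, taken within a library, rho with length was 0.00 (80 nuclear genes, GFP+) and 0.06 (78, GFP-), against −0.23 and −0.16 over all features.

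**Figure D5:**
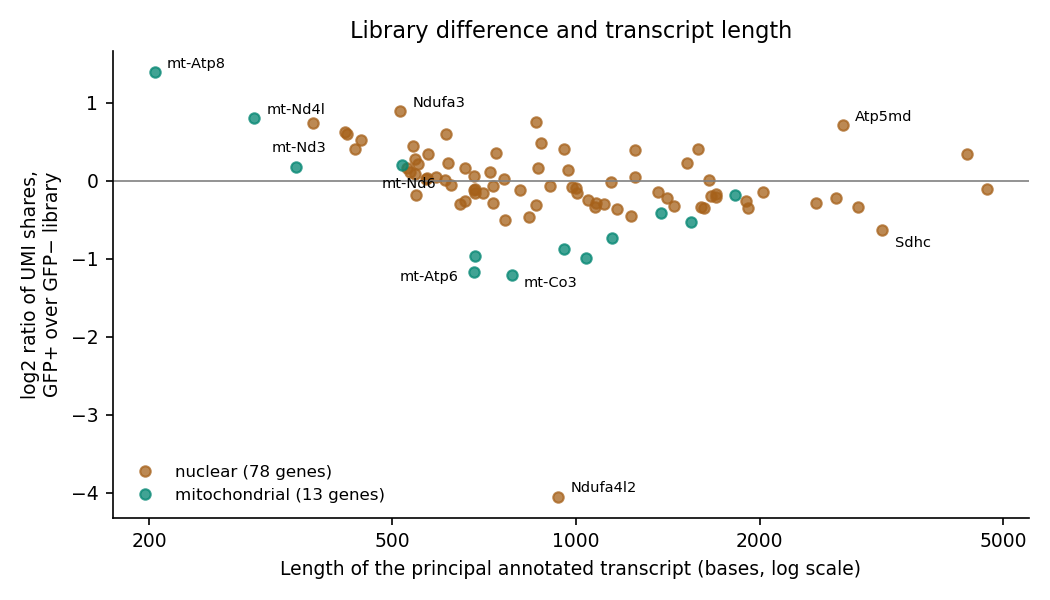
Log2 ratio of a gene's share of UMIs in the GFP+ over the GFP- library (y axis) against the length of its principal annotated transcript in bases (x axis, log scale) for the 78 nuclear and 13 mitochondrial genes with at least 20 CPM in either library. mt-Atp8 (204 bases, 1.39) and mt-Nd4l (297 bases, 0.80) lie at the upper left, mt-Co3 at −1.21 and mt-Atp6 at −1.18 lie below most nuclear genes, and Ndufa4l2 lies apart at −4.05.

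Ndufa4l2 and Cox4i2, forms of Ndufa4 and Cox4i1 known from low-oxygen responses and vessel wall cells, lay mostly in cells with mural markers in the GFP- library. Ndufa4l2 was at 2.17 CPM (26 UMIs) in the GFP+ and 36 CPM (1592 UMIs) in the GFP- library. The 166 GFP- cells with at least 10 UMIs of 7 mural markers, in which Rgs5 was at 4120 CPM, held 88.8% of its UMIs (484.4 CPM against 4.33 CPM in the other 2517 cells). They also held 89.1% of the Cox4i2 UMIs (103.5 against 0.89 CPM). Only 21 GFP+ cells reached 10 mural UMIs, with Rgs5 at 5.42 CPM and Ndufa4l2 at 23.0 CPM (17 of its 26 UMIs). These cells held 4 of the 17 Cox4i2 UMIs of the GFP+ library, and the other 583 cells held 13. In GFP- Mki67+ cells Ndufa4l2 was at 52.5 CPM, 5.49% of its pair (5.01 to 6.0) against 0.85% in Pax7+ cells, and there mural markers summed to 633.3 CPM, with 48 of 381 cells at 10 or more mural UMIs. In cells with fewer than 10 mural UMIs, Ndufa4l2 was at 0.80 CPM (9 UMIs) in the GFP+ and 4.33 CPM (179 UMIs) in the GFP- library. It was also lower in the GFP+ library within Pax7+ cells (2 against 93 UMIs, ratio 0.067, 0.0080 to 0.25) and Myog+ cells (3 against 140 UMIs, ratio 0.087, 0.018 to 0.26), where it was below 20 CPM in both libraries. Without cells that held 10 or more UMIs of macrophage, mural, endothelial or glial markers, 0 nuclear genes met the size rule for lower, and Sdhc was at 0.67-fold. Ndufa4 itself, counted here with complex I by its symbol although the protein belongs to complex IV, was at 795.8 and 793.7 CPM in the libraries and had log2 ratios of 1.13 and 0.85 in Acta1-high cells.

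Genes of the pathway outside the rule are read against the 23.0% (GFP+) and 19.8% (GFP-) of all features. The electron carriers and the acyl carrier subunit outside the rule were all past 1.5-fold. Cycs, cytochrome c, was at 166.9 and 625.8 CPM (GFP+) and 156.7 and 480.2 CPM (GFP-), a ratio of 3.75 (3.36 to 4.18) and 3.06 (2.88 to 3.26). Cyc1, cytochrome c1 of complex III, was at 2.85 and 2.34, and Ndufab1 at 2.43 and 2.08. Among genes that reached 20 CPM, Cycs stood above all nuclear genes of the rule but Cox6a2 in the GFP- library, and above all but Cox6a2, Cox7a1 and Cox8b in the GFP+ library.

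Of the 16 genes of the citric acid cycle and pyruvate dehydrogenase, 12 and 9 were higher and 0 lower. Idh3a, a subunit of NAD-dependent isocitrate dehydrogenase, was at ratios of 3.46 and 2.90, Pdhb at 2.37 and 2.29 and Dlat, both of pyruvate dehydrogenase, at 2.61 and 2.16, while citrate synthase (Cs) was at 1.05 and 0.99. Of the carriers 2 of 7 were higher in each library, not far from the 23.0% (GFP+) and 19.8% (GFP-) of all features. They were Slc25a5, an ADP/ATP carrier, at 2.23 and 1.84 and Vdac2, an outer membrane channel, at 1.83 and 1.74. The phosphate carrier Slc25a3 was at 1.46 and 1.34. The muscle ADP/ATP carrier Slc25a4 was at 1.10 and 1.08. Mitochondrial ribosomal proteins, which translate the 13 mitochondrial genes, had 45 and 31 of 76 higher and 0 lower, with Mrps6 at 2.55 and 2.67, Mrpl44 at 3.11 and 2.44 and Mrps12 at 3.01 and 2.31. Cs and Slc25a4 were named after their values were seen.

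Assembly factors were mixed, with 13 of 27 higher and 2 lower in the GFP+ library and 11 of 26 higher and 1 lower in the GFP- library. Ndufaf4 of complex I was at 2.38 and 2.77, Uqcc1 of complex III at 2.12 and 2.43 and Ndufaf1 at 1.78 and 2.26. Of the biogenesis and mitochondrial transcription genes 6 of 9 were higher and 0 lower (GFP+) and 3 of 9 higher and 1 lower (GFP-). Lrpprc, which stabilises mitochondrial messenger RNA, was at 2.35 (1.58 to 3.42) and 3.54 (2.84 to 4.41), and Ppargc1b, a coactivator of these genes, at 1.90 and 1.71. Polg, the mitochondrial DNA polymerase, was at 0.97 and 0.53. Tfam, which packages the mitochondrial genome and starts its transcription, was at 1.52 (1.05 to 2.15) and 1.22 (1.03 to 1.45); it was named after its values were seen. Between the libraries the summed lists had GFP+ over GFP- ratios of 0.86 for the citric acid cycle, 0.87 for the carriers, 0.92 for the ribosomal proteins, 0.98 for biogenesis and 1.03 for assembly factors.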

How the data were processed

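Droplet-based 3′ RNA counts (Single Cell 3′ Reagent Kit v3.1) were deposited as 1 unfiltered matrix per library. They are whole-number UMI counts per gene and barcode, made by the authors with Cell Ranger 4.0, per the file headers; Cell Ranger, Seurat and the mm10 build are named per the submitters' processing notes. The GFP+ and GFP- matrices held 13928952 and 49709323 UMIs. A barcode was taken as a cell here if it had 1000 or more UMIs, 500 or more genes and a mitochondrial share of 10% or less. UMIs were summed per state and divided by the state's total to give CPM. Ratios carry exact conditional Clopper-Pearson 95% intervals and shares exact binomial ones, which cover counting error only; with 1 library per group no test was made. Doublets were not removed by a caller; an alternative left out the deepest 5% of cells. Python 3.11.15, numpy 2.4.6, scipy 1.17.1 and pandas 2.3.3 were used, edgeR 4.0.16 (R 4.3.3) for TMM factors only, and the scripts were tested on simulated data. Named genes are, per complex, the 3 highest and 2 lowest Acta1-high over Pax7+ ratios in the GFP- library and the 6 highest and 6 lowest GFP+ over GFP- ratios, plus the mitochondrial genes and isoform pairs; other names were chosen after their values were seen. Since 3′ counting can weight genes unequally, isoform shares are compared between states and not read as relative amounts of the isoforms. The members, lists and tests were chosen with earlier results of these data known. Gene positions and lengths are from GENCODE M21 (longest principal transcript).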

Additional observations from a re-analysis of the deposited data

Results flagged for a closer look

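In Acta1-high over Pax7+ cells, 4 mitochondrial values lay on opposite sides of 1 in the libraries, each with a counting interval that did not include 1. The mitochondrial sum was at 0.902 in the GFP+ and 1.038 in the GFP- library. The complex V sum (mt-Atp6 and mt-Atp8) was at 0.896 and 1.055. mt-Co2 was at 0.958 and 1.079, and mt-Atp6 at 0.909 and 1.056. The difference between the libraries was not tested, since each holds 1 sample per state. With Acta1-high cells taken from 5000 CPM of Acta1, the GFP- values of the mitochondrial sum and of mt-Atp6 were 0.983 and 0.996, and with at most 20% mitochondrial UMIs the GFP+ value of mt-Co2 was 1.016, so that these opposite directions were lost.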

How the results depend on the processing

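A value was counted as crossing 1 only where the main counting interval did not include 1. Other values beyond that interval were counted as moved, whichever side of 1 they lay on. Across 631 values of 49 sums, 289 stayed within the counting interval, 330 moved beyond it and 12 crossed 1. Among 1599 values of 137 single-gene ratios these numbers were 1253, 339 and 7; 449 of 528 isoform shares stayed within their interval and 79 moved. Of 404 counts of genes 358 stayed within 1.5 times. The nuclear sum of Acta1-high over Pax7+ cells stayed above 1.3 in each alternative run, and the mitochondrial sum between the libraries stayed between 0.515 and 0.596. The alternative of cells of 10000 to 40000 UMIs (limited depth) was chosen after seeing the data. The values that moved were as follows. GFP+ over GFP- had a mitochondrial sum of 0.568, and 0.592 (within Pax7+ cells), 0.538 (within Mki67+ cells), 0.591 (within Myog+ cells), 0.515 (within Acta1-high cells), 0.545 (no mitochondrial limit), 0.557 (CPM over nuclear UMIs), 0.591 (TMM), 0.564 (mean of cells), 0.596 (no other-type cells), 0.579 (no deepest 5%), 0.593 (limited depth). GFP+ over GFP- had a nuclear sum of 1.033, and 0.988 (within Mki67+ cells), 1.133 (within Myog+ cells), 1.201 (within Acta1-high cells), 1.043 (no mitochondrial limit), 1.038 (at least 5000 UMIs), 1.013 (CPM over nuclear UMIs), 1.074 (TMM), 0.949 (mean of cells), 1.062 (no other-type cells), 1.015 (no deepest 5%), 1.010 (limited depth). Mki67+ over Pax7+ (GFP+) had a mitochondrial sum of 0.764, and 0.801 (at most 20% mitochondrial UMIs), 0.792 (no mitochondrial limit), 0.730 (TMM), 0.796 (mean of cells), 0.829 (no other-type cells), 0.795 (no deepest 5%), 0.804 (overlapping gates), 0.754 (gates of 3 UMIs), 0.817 (thinned gates), 0.811 (limited depth). Mki67+ over Pax7+ (GFP-) had a mitochondrial sum of 0.840, and 0.854 (at most 20% mitochondrial UMIs), 0.915 (no mitochondrial limit), 0.834 (CPM over nuclear UMIs), 0.800 (TMM), 0.864 (mean of cells), 0.845 (no other-type cells), 0.861 (no deepest 5%), 0.873 (overlapping gates), 0.795 (gates of 3 UMIs), 0.816 (thinned gates), 0.851 (limited depth). Myog+ over Pax7+ (GFP+) had a mitochondrial sum of 0.925, and 0.937 (at most 20% mitochondrial UMIs), 0.937 (no mitochondrial limit), 0.912 (TMM), 1.038 (mean of cells), 0.967 (no other-type cells), 1.007 (no deepest 5%), 0.953 (overlapping gates), 0.934 (gates of 3 UMIs), 0.946 (thinned gates), 1.00002 (limited depth). Acta1-high over Pax7+ (GFP+) had a mitochondrial sum of 0.902, and 0.957 (at most 20% mitochondrial UMIs), 0.935 (no mitochondrial limit), 0.926 (TMM), 0.925 (mean of cells), 0.871 (no deepest 5%), 0.935 (overlapping gates), 0.952 (Acta1-high from 5000 CPM), 0.948 (thinned gates). Mki67+ over Pax7+ (GFP-) had a nuclear sum of 1.224, and 1.210 (no mitochondrial limit), 1.215 (CPM over nuclear UMIs), 1.166 (TMM), 1.210 (mean of cells), 1.242 (no other-type cells), 1.194 (no deepest 5%), 1.160 (overlapping gates), 1.260 (gates of 3 UMIs), 1.208 (thinned gates), 1.193 (limited depth). Myog+ over Pax7+ (GFP-) had a mitochondrial sum of 0.926, and 0.947 (no mitochondrial limit), 0.923 (CPM over nuclear UMIs), 0.917 (TMM), 0.939 (mean of cells), 0.942 (no other-type cells), 0.955 (no deepest 5%), 0.997 (overlapping gates), 0.954 (gates of 3 UMIs), 0.948 (Acta1-high from 5000 CPM), 0.949 (thinned gates), 0.955 (limited depth). Acta1-high over Pax7+ (GFP-) had a mitochondrial sum of 1.038, and 1.032 (no mitochondrial limit), 1.084 (TMM), 1.023 (mean of cells), 1.031 (no other-type cells), 1.088 (overlapping gates), 1.032 (gates of 3 UMIs), 0.983 (Acta1-high from 5000 CPM), 1.048 (limited depth). Acta1-high over Pax7+ (GFP+) had a nuclear sum of 1.701, and 1.682 (at least 5000 UMIs), 1.745 (TMM), 1.949 (mean of cells), 1.738 (no deepest 5%), 1.542 (overlapping gates), 1.644 (gates of 3 UMIs), 1.622 (Acta1-high from 5000 CPM), 1.675 (limited depth). Mki67+ over Pax7+ (GFP+) had a nuclear sum of 1.168, and 1.117 (TMM), 1.229 (mean of cells), 1.240 (no other-type cells), 1.153 (no deepest 5%), 1.144 (gates of 3 UMIs), 1.242 (thinned gates), 1.077 (limited depth). Myog+ over Pax7+ (GFP+) had a nuclear sum of 1.361, and 1.341 (TMM), 1.410 (mean of cells), 1.394 (no other-type cells), 1.333 (no deepest 5%), 1.303 (overlapping gates), 1.448 (gates of 3 UMIs), 1.425 (Acta1-high from 5000 CPM), 1.451 (thinned gates), 1.279 (limited depth). Myog+ over Pax7+ (GFP-) had a nuclear sum of 1.244, and 1.231 (TMM), 1.231 (mean of cells), 1.215 (no deepest 5%), 1.180 (overlapping gates), 1.297 (gates of 3 UMIs), 1.271 (Acta1-high from 5000 CPM), 1.278 (thinned gates), 1.226 (limited depth). Acta1-high over Pax7+ (GFP-) had a nuclear sum of 1.467, and 1.532 (TMM), 1.518 (mean of cells), 1.481 (no deepest 5%), 1.338 (overlapping gates), 1.542 (Acta1-high from 5000 CPM), 1.448 (limited depth).

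Values counted as crossing 1, besides those sums, concerned the libraries' nuclear complexes as means of cells (I 0.938, III 0.983, IV 0.957, V 0.953). They also concerned complex I with CPM over nuclear UMIs (0.996) and at limited depth (0.996), and Atp5g3 (0.9996, mean of cells). For Acta1-high over Pax7+ cells they concerned mt-Co2 in GFP+ (1.02 at most 20% mitochondrial UMIs, 1.0001 mean of cells, 1.01 thinned gates), mt-Nd2 in GFP+ (0.999, mean of cells), and in GFP-, with Acta1-high from 5000 CPM, mt-Atp6 (0.996) and mt-Nd4 (0.963). Between the libraries, nuclear genes lower numbered 1 with TMM and 0 without other-type cells (2 in the report), and nuclear genes higher 3 as a mean of cells (7). In Acta1-high cells nuclear genes lower numbered 1 (GFP-, 5 CPM) and 2 (both libraries, no minimum CPM) in place of 0, and nuclear genes higher in GFP- 17 with overlapping gates (41). The shares of all features under these alternatives are not given here. The cause of these shifts was not tested.

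No paired analysis was possible because each group has 1 library, so no replicate could be left out either. The 25 GFP+ Acta1-high cells, with 41, 37 and 19 UMIs of Cox6a2, Cox7a1 and Cox8b, limit those shares.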
